A study of Homo sapiens with 12 samples.

Results

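The difference between 2 engineered human Müller glia lines in their response to doxycycline (Dox) was measured on 12 Clariom D Human arrays. For each probe set it was computed as the Dox response of the MIO-M1-CTG(648) line minus the Dox response of the MIO-M1-CTG(0) line, where a Dox response is the mean of the Dox-induced arrays minus the mean of the non-induced arrays, on the log2 scale of the deposited values. All 36176 probe sets with 1 gene symbol entered, of 135750 probe sets on the array, and they carried 33616 different symbols. The 4 groups were Dox-induced MIO-M1-CTG(648), non-induced MIO-M1-CTG(648), Dox-induced MIO-M1-CTG(0) and non-induced cells of the MIO-M1-CTG(0) line, with 3 biological replicates in each. MIO-M1 is a spontaneously immortalized line of human Müller glia, the main glial cell of the retina. Both lines carried a constitutively expressed Tet-On transactivator, introduced into MIO-M1 cells of which 1 clone was taken forward, and a Dox-responsive minigene with the 3′ exons of DMPK, which held an expanded CTG repeat in MIO-M1-CTG(648) cells and no CTG repeat in MIO-M1-CTG(0) cells. All cells grew in serum free of tetracycline with G418 and puromycin, and the Dox-induced cells received 1 μg/mL Dox for 8 days. Each repeat length was represented by 1 line, so the repeat and any other difference between the lines cannot be told apart.

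In myotonic dystrophy type 1, a CTG expansion in the 3′ untranslated region of DMPK is transcribed into CUG repeat RNA, which collects in nuclear foci and binds splicing regulators of the MBNL family. Dox reaches both lines and switches on a minigene in both, so a probe set that responds alike in the 2 lines has a difference near 0, and only an unequal response gives a large one. Müller glia span the retina, supply neurons with metabolites and glutamine, lay down matrix and can release cytokines and chemokines.

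Array medians over all probe sets lay between 4.24 and 4.32, and 52.1% to 53.3% of the probe sets with 1 symbol had a signal of at least 5. The deposited values reached 19.62, so differences are given on their own log2 scale and not turned into linear folds. Of 25 glial markers measured, VIM, GLUL, SOX2, SOX9, CRYAB and CD44 had group means above 11 in all 4 groups, whereas RLBP1, GFAP, AQP4, KCNJ10 and S100B stayed below 5 in every group. The label of Müller glia was therefore met by some of the defining markers only. The non-induced MIO-M1-CTG(648) replicate 1 was the highest of its group in 104 of the 159 probe sets that were lower in the MIO-M1-CTG(648) line only, and the Dox-induced MIO-M1-CTG(0) replicate 3 was the highest of its group in 119 of them, while over all probe sets these arrays were the highest in 34.9% and 32.4%. The class described below that fell in MIO-M1-CTG(648) and rose in MIO-M1-CTG(0) cells held 13 probe sets. In 11 of them the first of these arrays was the highest of its group, and likewise in 11 the second. The part of the 2 arrays in the results was not tested. Without them, 474 and 430 probe sets were called in place of the 588 given below.

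A probe set was called when the difference was larger than 0.5 in either direction and its p, before adjustment, was under 0.005 in a limma fit over all 12 arrays. In all, 588 of the 36176 probe sets were called, 1.63% of those tested, and they stood for 579 genes. The difference was positive in 271 (0.749%), meaning a higher response in the MIO-M1-CTG(648) line, and negative in 317 (0.876%). With p-values adjusted by the Benjamini-Hochberg method, 113 (0.312%) were under 0.05, 58 of them positive and 55 negative. At the same limits, 652 probe sets (1.8%) responded to Dox in the MIO-M1-CTG(648) line and 271 (0.749%) in the MIO-M1-CTG(0) line. Of these, 309 responses of the MIO-M1-CTG(648) line and 172 of the MIO-M1-CTG(0) line were not called as a difference between the lines. The call nearest to the limit was COA6, an assembly factor of cytochrome c oxidase, with a difference of 0.85 and a p of 0.004995, and just outside was WDR6, a WD repeat protein, with -0.82 and 0.005006.

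The called probe sets were then divided by the response of each line. Responses past the limits in both lines and in opposite directions accounted for 22 probe sets, and no probe set was called with responses in the same direction. A response past the limits in the MIO-M1-CTG(648) line only accounted for 321, one in the MIO-M1-CTG(0) line only for 77, and in the remaining 168 neither line passed on its own. These classes come from the same arrays as the difference and are given as a description. They also depend on the limit set for a single line. In 281 of the 321 and in 76 of the 77, the response of the other line had the opposite sign, with a p under 0.05 in 63 and in 16, and with that limit in place of 0.005 the opposite class held 124 probe sets. A call in the difference itself favours opposite signs, so these counts are not read as a trait of the classes. Shares for all Dox responses of the MIO-M1-CTG(648) line, whether called as a difference or not, are given below. The response of the other line was under 0.25 in size in 124 of the 321 and in 21 of the 77. In 50 of the 321, both MIO-M1-CTG(0) groups had a mean below 5 (35 with a positive and 15 with a negative difference), and in 25 of the 77 both MIO-M1-CTG(648) groups did (10 positive and 15 negative).

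**Figure D1:**
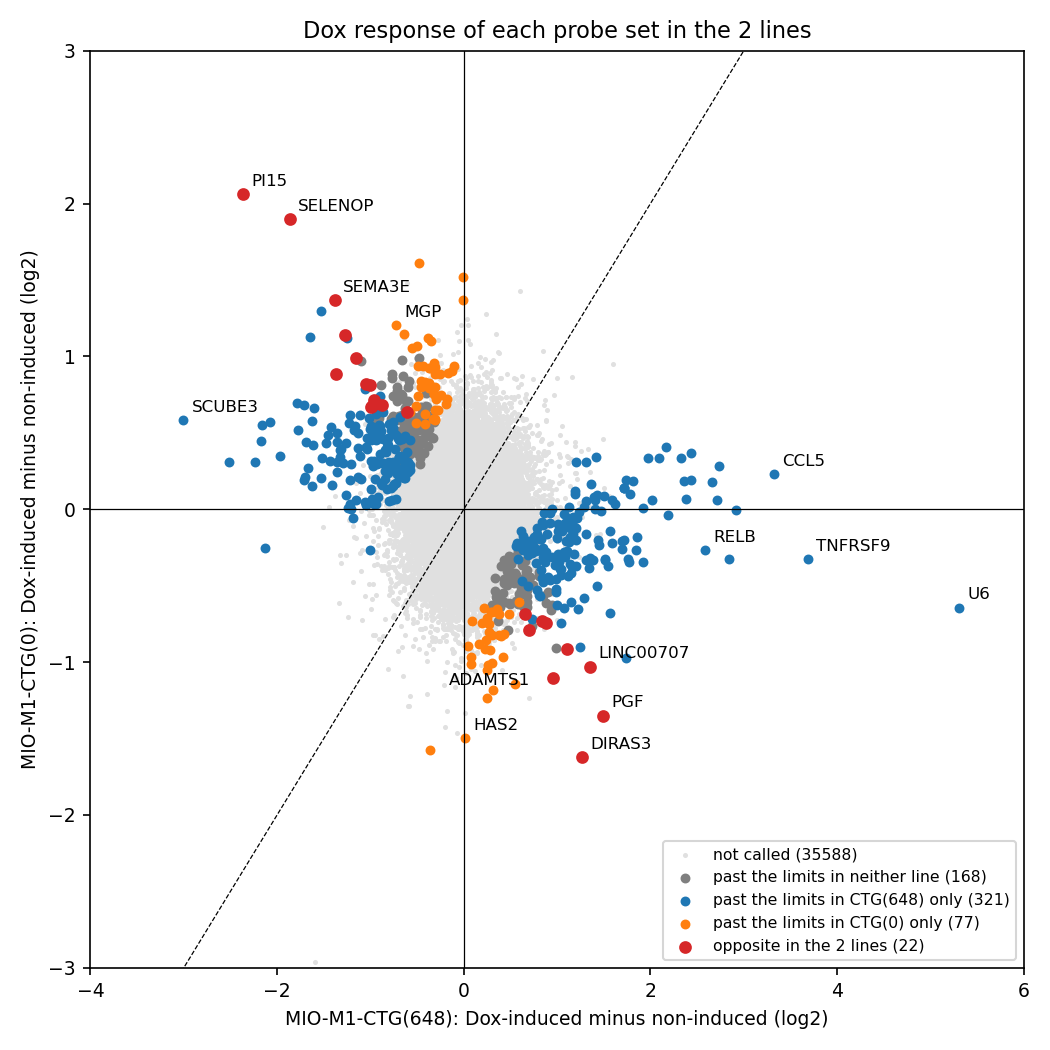
Dox response of each of the 36176 probe sets with 1 symbol in MIO-M1-CTG(648) cells (horizontal axis) and in MIO-M1-CTG(0) cells (vertical axis), each the Dox-induced minus the non-induced mean on the log2 scale, coloured by class, with equal responses on the dashed line. The 22 opposite probe sets, in red, lie in the upper left and lower right, with PI15 at -2.36 and 2.06, and the 321 of the MIO-M1-CTG(648) line, in blue, spread along the horizontal axis up to U6 at 5.30.

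The 2 Dox responses share no array, and over all probe sets they were close to unrelated, with a Pearson's r of -0.067 across probe sets, which are not independent replicates. Among the 18814 probe sets whose mean was 5 or more, r was -0.129, and among the 17362 dimmer ones it was 0.007. Of the 303 probe sets lower with Dox in MIO-M1-CTG(648) cells, 216 (71.3%) had a response above 0 in MIO-M1-CTG(0) cells, against 48.9% of all probe sets. Of the 349 higher ones, 144 (41.3%) did.

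Of the 22 opposite genes, 13 fell in MIO-M1-CTG(648) cells and rose in MIO-M1-CTG(0) cells, among them the secreted proteins PI15, SELENOP, SEMA3E and CHI3L1 and the collagen genes COL14A1 and COL11A1, and 9 rose in MIO-M1-CTG(648) cells and fell in MIO-M1-CTG(0) cells, among them PGF, ADAMTS1, DKK1 and DIRAS3. In all 22 the Dox-induced and non-induced arrays did not overlap in either line. Over all probe sets the arrays did not overlap in 17% for the MIO-M1-CTG(648) line, in 12.9% for the MIO-M1-CTG(0) line and, in both lines with opposite directions, in 1.54%. All 22 were also called as a difference when any 1 of the 12 arrays was left out, although between 10 and 16 of them then still passed in both lines, the fewest without the Dox-induced MIO-M1-CTG(0) replicate 3. The 22 were chosen for opposite responses on these same arrays. Their separation and the calls that stayed follow in part from that choice, and nothing is read from them. An adjusted p under 0.05 for the difference was reached by 20, and ACSS3 and DKK1 were the exceptions. The response of each line alone, from the same limma fit, entered the class by its unadjusted p. In the MIO-M1-CTG(0) line the lowest adjusted p of the 22 was 0.0717, for PI15. In the MIO-M1-CTG(648) line it ranged from 0.00139 for PI15 to 0.275 for ACSS3.

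PI15, a secreted peptidase inhibitor (chr8:74824534-74855029 in GRCh38), had signals of 12.44, 12.45 and 12.31 in Dox-induced and 15.47, 14.50 and 14.32 in non-induced cells of the MIO-M1-CTG(648) line. In MIO-M1-CTG(0) cells it had 15.19, 15.48 and 15.57 with Dox, against 13.28, 13.80 and 12.98 without. The line with the higher level thus changed with Dox, since the MIO-M1-CTG(648) line lay 3.01 below the MIO-M1-CTG(0) line with Dox and 1.41 above it without. The difference in response was -4.42 (SE 0.40, adjusted p = 0.000532), the most negative of all called probe sets. SELENOP, the plasma carrier of selenium (chr5:42799880-42811892), had 8.87, 9.0 and 9.02 in Dox-induced and 11.76, 10.57 and 10.16 in non-induced cells of the MIO-M1-CTG(648) line. In MIO-M1-CTG(0) cells its signal was 6.15, 6.31 and 7.37 with Dox and 4.61, 5.00 and 4.53 without. Its responses of -1.87 and 1.90 gave a difference of -3.76 (SE 0.53, adjusted p = 0.0104), and here the order of the lines did not change, with MIO-M1-CTG(648) cells higher by 2.35 with Dox and by 6.12 without.

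SEMA3E, a secreted guidance ligand that signals through plexin D1, fell by 1.38 in MIO-M1-CTG(648) cells and rose by 1.37 in MIO-M1-CTG(0) cells, a difference of -2.75 (SE 0.50). PDE5A, the phosphodiesterase that hydrolyses cyclic GMP, had 13.68, 13.59 and 13.66 in Dox-induced and 15.58, 14.68 and 14.50 in non-induced cells of the MIO-M1-CTG(648) line, against 10.39, 10.79 and 11.35 with Dox and 9.54, 9.79 and 9.78 without in MIO-M1-CTG(0) cells (difference -2.42, SE 0.40). CHI3L1, a secreted chitinase-like glycoprotein made by reactive glia, fell by 1.37 and rose by 0.89 in the same order of lines. The fibril-associated collagen gene COL14A1 and the fibrillar collagen gene COL11A1 behaved in the same way, with differences of -2.14 (SE 0.30) and -1.87 (SE 0.32). The other 6 of this kind had differences between -1.82 and -1.24, namely CST7 (a cysteine protease inhibitor), SORBS2 (a cytoskeletal adaptor), CHRNE (a subunit of the acetylcholine receptor of muscle), PROS1 (the anticoagulant protein S), TNS2 (a focal adhesion protein) and ACSS3 (an acyl-CoA synthetase). They are outside the naming rule and are listed to complete the class.

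Among the 9 genes with the reverse pattern, DIRAS3, an imprinted small GTPase of the Ras family (chr1:68045962-68050627), had 6.52, 6.16 and 6.58 in Dox-induced and 5.46, 4.77 and 5.22 in non-induced cells of the MIO-M1-CTG(648) line. In MIO-M1-CTG(0) cells it had 6.52, 7.87 and 6.46 with Dox and 8.84, 7.93 and 8.94 without, so that the groups of this line nearly met. The difference was 2.89 (SE 0.51, adjusted p = 0.0337). PGF, placental growth factor, a ligand of the VEGF receptor FLT1, had 9.40, 9.04 and 8.99 with Dox and 7.40, 7.61 and 7.94 without in MIO-M1-CTG(648) cells. In MIO-M1-CTG(0) cells the values were 10.16, 10.26 and 8.80 with Dox and 11.05, 10.55 and 11.67 without, and replicate 3 of the Dox-induced group stood well below the other 2. The difference was 2.84 (SE 0.51, adjusted p = 0.0361). With Dox the lines lay 0.60 apart and without Dox 3.44 apart, the MIO-M1-CTG(0) line being higher in both cases.

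ADAMTS1, a secreted protease that cleaves aggrecan and versican, rose by 0.95 in MIO-M1-CTG(648) cells and fell by 1.11 in MIO-M1-CTG(0) cells, although its level was far lower in MIO-M1-CTG(648) cells (5.95 with and 5.00 without Dox, against 10.07 and 11.18). The long non-coding RNA LINC00707 had nearly the same level in both non-induced lines, 6.56 and 6.59 for MIO-M1-CTG(648) and MIO-M1-CTG(0) cells, and reached 7.91 with Dox in the MIO-M1-CTG(648) line and 5.56 in the MIO-M1-CTG(0) line. HRAT17, another long non-coding RNA, had a difference of 2.03 (SE 0.31), and LYPD6, a membrane-anchored protein of the Ly6 family, one of 1.62 (SE 0.30). The Wnt antagonist gene DKK1 had 1.34 (SE 0.27, adjusted p = 0.0631), but its other probe set had -0.36 and was not called. The pseudogenes RPEP5 (1.49) and YWHAEP4 (1.57) complete the class and are likewise outside the naming rule. In 16 of the 22 opposite genes the lines were closer together with Dox than without, with a median distance of 0.95 and 1.66, and in 10 the higher line changed. The lines were closer with Dox in 142 of the 321, 44 of the 77 and 83 of the 168 probe sets of the other classes. All were chosen by the same difference, so nothing is read from these counts.

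**Figure D2:**
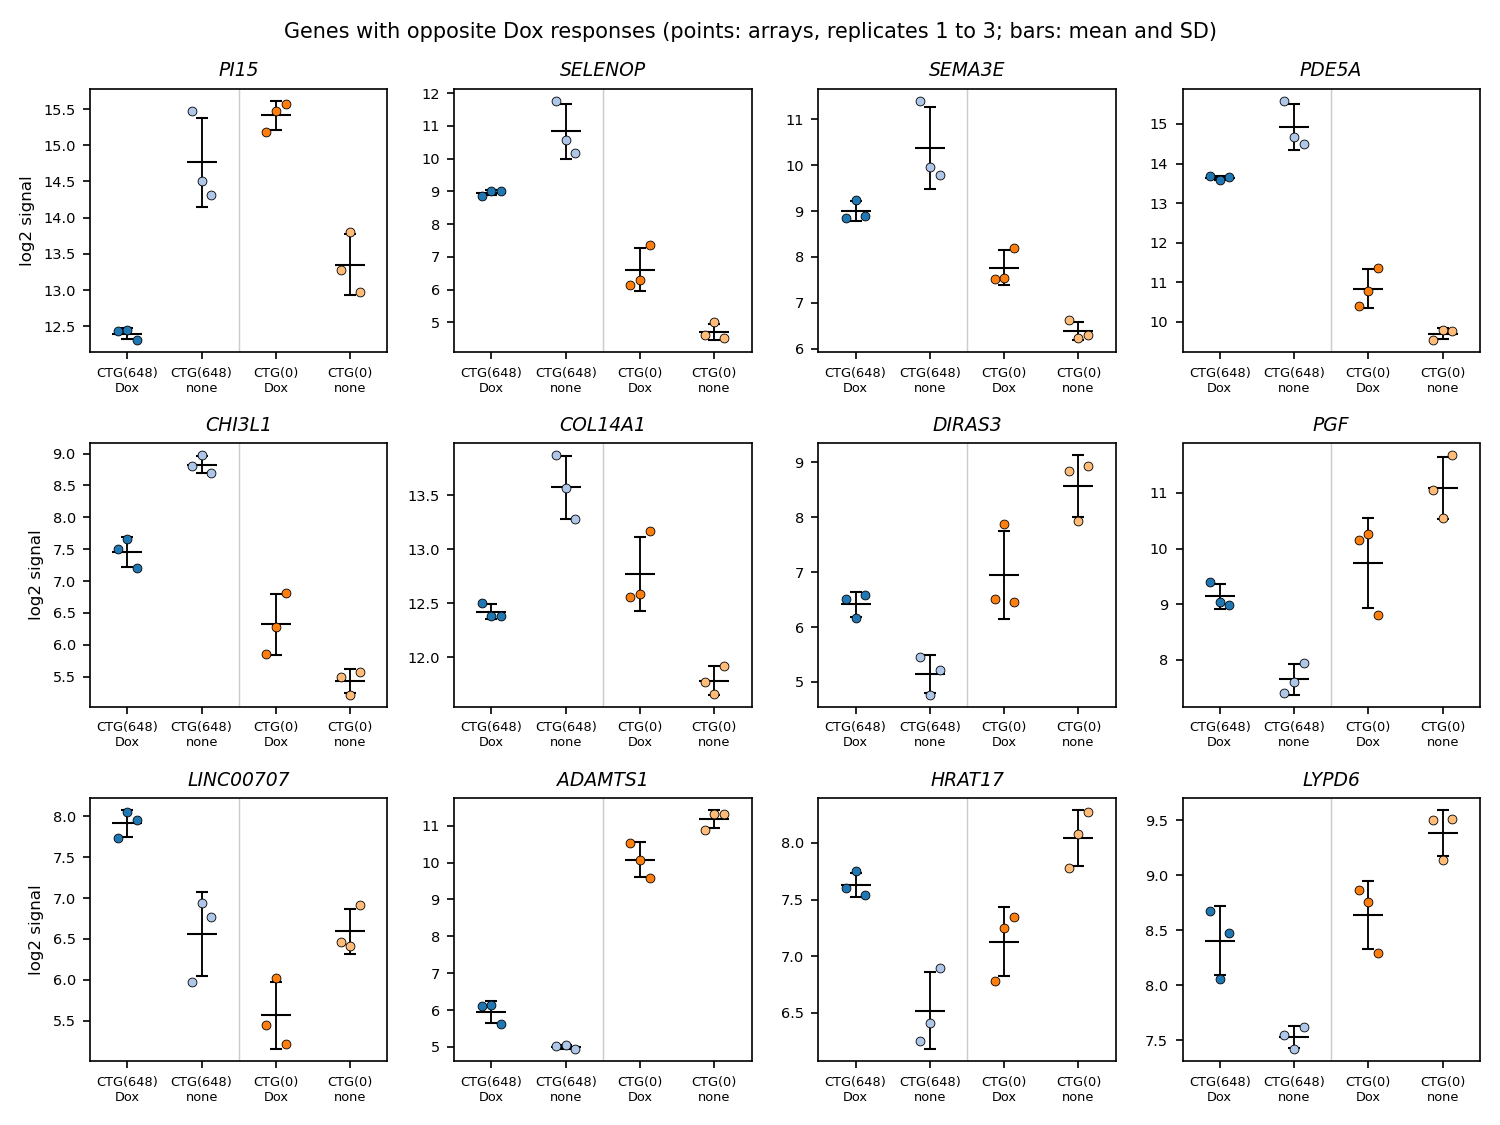
Log2 signal of 12 genes with opposite Dox responses in Dox-induced and non-induced cells of the MIO-M1-CTG(648) line, then Dox-induced and non-induced cells of the MIO-M1-CTG(0) line; points are the 3 arrays of a group and bars the mean and SD. In the first 6 panels the Dox-induced arrays lie below the non-induced ones in MIO-M1-CTG(648) cells and above them in MIO-M1-CTG(0) cells, as for PI15 with means of 12.40 and 14.76, and 15.41 and 13.35; in the last 6 the order is the reverse.

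The positive differences in the class of the MIO-M1-CTG(648) line only, of which U6 was the highest, included genes of NF-κB and TNF receptor signalling, chemokines and cytokines. NF-κB is a family of dimeric transcription factors that inhibitors of the IκB type hold in the cytoplasm until a receptor such as that of TNF is engaged. Of 38 measured genes of this pathway, 8 had a positive call and none a negative one (median difference 0.39, against 0.02 over all genes). Over all genes, each by its brightest probe set, 1.65% were called in the difference. This share stands beside the count of each list below. In MIO-M1-CTG(648) cells 11 of the 38 passed with Dox, all upward, where 1.8% of all probe sets passed. None passed in MIO-M1-CTG(0) cells, where 0.749% of all probe sets did, so that a count of 0 is near the background.

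TNFRSF9, the costimulatory receptor 4-1BB (chr1:7915871-7940839), had signals of 9.26, 9.59 and 9.28 in Dox-induced and 5.36, 5.99 and 5.73 in non-induced cells of the MIO-M1-CTG(648) line. In MIO-M1-CTG(0) cells it had 6.28, 5.92 and 5.41 with Dox and 5.88, 6.11 and 6.60 without, which overlapped. The difference was 4.01 (SE 0.37, adjusted p = 0.000532). RELB, an NF-κB subunit of the non-canonical arm, had 9.36, 8.93 and 9.04 with Dox and 6.46, 6.19 and 6.93 without in MIO-M1-CTG(648) cells, against 6.54, 6.43 and 6.41 with and 6.90, 6.57 and 6.71 without in MIO-M1-CTG(0) cells (difference 2.85, SE 0.29). TNFAIP3, the deubiquitinase A20 that restrains NF-κB, and NFKB2, the precursor of the p52 subunit, had differences of 1.99 (SE 0.25) and 1.52 (SE 0.26).

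Of 32 chemokines measured, 6 had a positive call and none a negative one, and 19 had means below 5 in all groups. CXCL8, an attractant of neutrophils, had 8.59, 8.66 and 8.86 in Dox-induced and 5.18, 6.23 and 6.17 in non-induced cells of the MIO-M1-CTG(648) line, and 6.56, 6.80 and 6.02 with Dox and 6.86, 6.53 and 6.97 without in MIO-M1-CTG(0) cells. Its difference was 3.17 (SE 0.40, adjusted p = 0.00548). For CCL5, an attractant of T cells and monocytes, it was 3.09 (SE 0.42), for CXCL10, which is induced by interferon and NF-κB, 2.48 (SE 0.28), and for the monocyte attractant CCL2, 1.76 (SE 0.35, adjusted p = 0.0637). Among 24 interleukins and colony stimulating factors, IL6 (2.45, SE 0.27), IL32 (1.95, SE 0.36) and IL18 (1.16, SE 0.27, adjusted p = 0.141) were called, all positive. IL6 had signals of 9.45, 9.35 and 9.08 with Dox and 6.72, 6.53 and 6.43 without in MIO-M1-CTG(648) cells, so that it passed the level of the MIO-M1-CTG(0) line, which was 8.42, 8.48 and 8.10 with Dox and 8.13, 7.81 and 8.22 without.

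The promoters of 4 of these genes are shown because each holds the κB motif, the consensus binding site of NF-κB, in capitals. They run from 250 bases before to 50 bases after the start in RefSeq (GRCh38.p14), on the strand of the gene. In TNFRSF9 the capitals cover 2 overlapping matches, and CXCL10 and TNFAIP3 have 2 separate ones.
TNFRSF9, chr1:7940790-7941089, minus strand: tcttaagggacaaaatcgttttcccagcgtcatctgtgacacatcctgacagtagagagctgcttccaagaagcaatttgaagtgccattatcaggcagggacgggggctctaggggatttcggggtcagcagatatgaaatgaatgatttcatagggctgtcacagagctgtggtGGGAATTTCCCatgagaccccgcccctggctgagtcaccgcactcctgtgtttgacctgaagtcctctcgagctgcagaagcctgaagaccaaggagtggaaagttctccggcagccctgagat
TNFAIP3, chr6:137867009-137867308, plus strand: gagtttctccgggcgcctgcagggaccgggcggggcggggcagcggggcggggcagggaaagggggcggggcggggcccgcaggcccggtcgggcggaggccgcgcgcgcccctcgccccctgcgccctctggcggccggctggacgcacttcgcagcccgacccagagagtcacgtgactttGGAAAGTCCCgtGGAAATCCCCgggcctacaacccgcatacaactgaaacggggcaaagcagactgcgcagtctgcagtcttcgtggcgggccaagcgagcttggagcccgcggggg
IL6, chr7:22726950-22727249, plus strand: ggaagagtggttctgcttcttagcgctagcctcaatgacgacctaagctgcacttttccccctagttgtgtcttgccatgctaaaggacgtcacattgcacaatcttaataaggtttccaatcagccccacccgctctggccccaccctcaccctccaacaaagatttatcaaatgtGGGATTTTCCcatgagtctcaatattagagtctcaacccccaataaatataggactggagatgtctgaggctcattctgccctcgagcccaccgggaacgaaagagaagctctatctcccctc
CXCL10, chr4:76023448-76023747, minus strand: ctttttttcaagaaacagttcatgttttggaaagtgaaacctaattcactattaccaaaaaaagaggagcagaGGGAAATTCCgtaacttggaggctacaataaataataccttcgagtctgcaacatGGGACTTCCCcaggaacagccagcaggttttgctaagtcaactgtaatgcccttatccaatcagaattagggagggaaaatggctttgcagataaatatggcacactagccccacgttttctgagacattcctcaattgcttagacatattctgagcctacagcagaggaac

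The κB motif, on either strand, was found in 16 of the 98 promoters available for the positive genes of the MIO-M1-CTG(648) line only (16.3%), in 9 of the 104 available for the negative ones (8.65%), in none of the 14 available for the opposite genes, and in 1019 of 16474 promoters of all measured genes (6.19%). The AP-1 site was searched loosely as TGANTCA with any middle base, so that TGAATCA and TGATTCA count as well. Such a run can also lie within a longer composite element. It was found in 14 of the 98 positive ones (14.3%) and 7 of the 104 negative ones (6.73%), against 6.36% of all. The interferon-stimulated response element was found in 4 (4.08%) and 8 (7.69%), against 3.17% of all. A match is a run of letters and not a measured binding site, and none of these shares was tested.

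Of 63 interferon-stimulated genes, 8 had a positive call and 2 a negative one, all 10 in the class of the MIO-M1-CTG(648) line only. RSAD2, the antiviral radical SAM enzyme viperin, had 11.01, 10.97 and 11.16 in Dox-induced and 8.59, 8.45 and 8.78 in non-induced cells of the MIO-M1-CTG(648) line, against 11.01, 10.68 and 10.58 with and 10.49, 10.45 and 10.23 without Dox in MIO-M1-CTG(0) cells (difference 2.07, SE 0.25). With Dox its level in the MIO-M1-CTG(648) line thus came up to that of the other line. The other probe set of RSAD2 had a difference of -0.18 and was not called. The transcription factor gene IRF1 (1.92, SE 0.32) and IFIT2, which binds viral RNA (1.64, SE 0.29), were also called. The negative ones were IFITM2 and IFITM3 (-1.28 and -0.91, adjusted p = 0.139 and 0.231), membrane proteins that restrict viral entry, which are close paralogs and may share signal. The median difference over the list was 0.08, with median responses of 0.23 for MIO-M1-CTG(648) and 0.17 for MIO-M1-CTG(0) cells.

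Positive calls in 4 further lists, of integrated stress, NRF2 target, p53 target and MAP kinase feedback genes, included ATF3, a transcription factor of the integrated stress response (2.11, SE 0.36), PPP1R15A, which recruits a phosphatase to eIF2α (1.32, SE 0.25), the NRF2 targets OSGIN1 (2.03, SE 0.25) and HMOX1, the haem oxygenase (2.15, SE 0.41), the p53 target GADD45A (1.84, SE 0.24) and DUSP4, a phosphatase of MAP kinases (1.44, SE 0.24). OSGIN1 and HMOX1 were the 2 calls of 19 NRF2 targets, GADD45A the 1 of 26 p53 targets and DUSP4 the 1 of 18 MAP kinase feedback genes. With 1.63% called over all probe sets, a single call in a list of this size is near the background. Of the 37 integrated stress genes, 5 had positive and 4 negative calls. The negative ones included PSAT1, an enzyme of serine synthesis (-1.20, SE 0.23), and SLC7A5, a transporter of large amino acids (-0.87, SE 0.23, adjusted p = 0.226). Of 26 immediate early genes 4 were positive and 1 negative. FOSL1, a Fos family subunit of AP-1, had 13.48, 13.59 and 13.42 with Dox and 11.72, 12.71 and 12.83 without in MIO-M1-CTG(648) cells, and 13.64, 13.36 and 13.49 with Dox and 14.18, 13.91 and 14.34 without in MIO-M1-CTG(0) cells (1.72, SE 0.36, adjusted p = 0.0804). JUND, of the Jun family, had a difference of -1.26 (SE 0.34, adjusted p = 0.241).

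**Figure D3:**
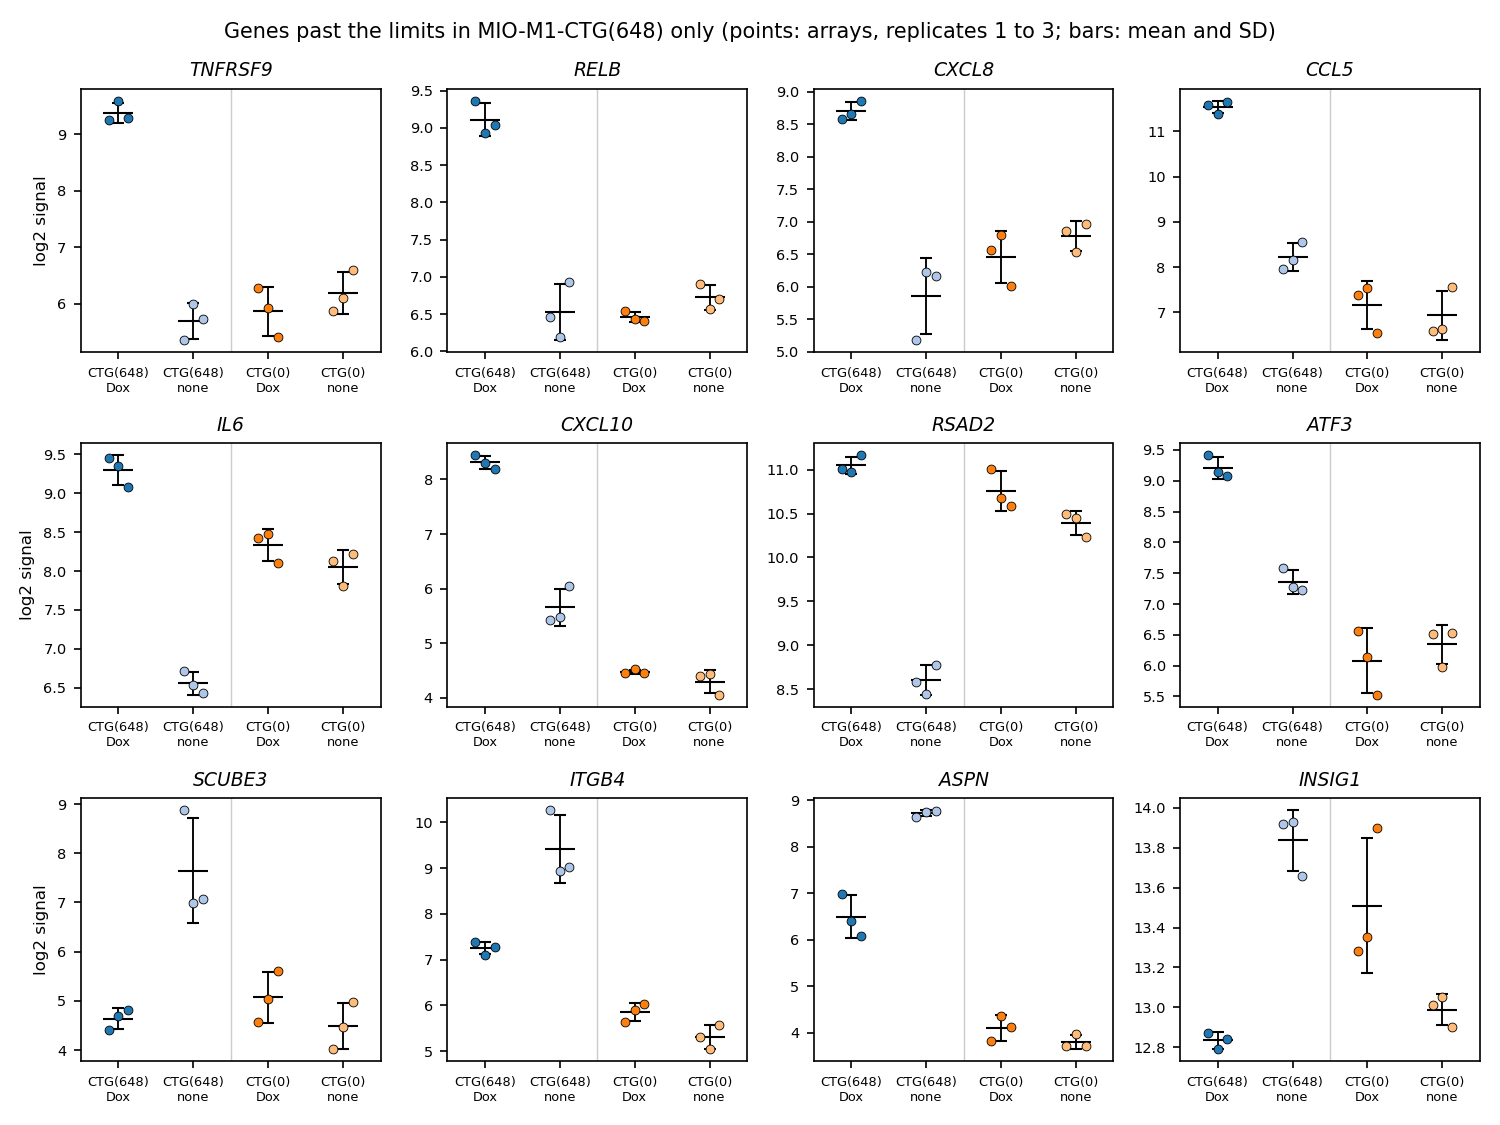
Log2 signal of 12 genes called in the MIO-M1-CTG(648) line only, in Dox-induced and non-induced cells of the MIO-M1-CTG(648) line, then Dox-induced and non-induced cells of the MIO-M1-CTG(0) line; points are the 3 arrays of a group and bars the mean and SD. In the first 8 panels the Dox-induced MIO-M1-CTG(648) arrays lie above the non-induced ones, for TNFRSF9 at 9.26 to 9.59 and 5.36 to 5.99, and in the last 4 below them.

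Negative differences in the class of the MIO-M1-CTG(648) line only included genes of the extracellular matrix and of cell adhesion. SCUBE3, a secreted EGF-domain protein, had 4.41, 4.69 and 4.82 in Dox-induced and 8.88, 6.98 and 7.08 in non-induced cells of the MIO-M1-CTG(648) line. In MIO-M1-CTG(0) cells it had 4.58, 5.03 and 5.61 with Dox and 4.03, 4.47 and 4.97 without, close to the level of the Dox-induced MIO-M1-CTG(648) cells. The difference was -3.59 (SE 0.61, adjusted p = 0.0283). ITGB4, the laminin-binding integrin β4, had 7.38, 7.11 and 7.27 with Dox and 10.27, 8.94 and 9.02 without in MIO-M1-CTG(648) cells (difference -2.71, SE 0.42). In both genes the non-induced replicate 1 was the highest by more than 1 unit.

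SCG5, a secretory granule chaperone of the prohormone convertase PC2, was measured by 10 probe sets, of which 8 were called, all negative, and all 10 had a negative difference (-2.83 to -0.27). THBS2, a matricellular thrombospondin, fell by 1.64 in MIO-M1-CTG(648) cells. Its response of 1.13 in the other line had a p of 0.008531, just outside the limit of the opposite class. A2M, the protease inhibitor α2-macroglobulin, was similar (-1.53 and 1.30), and its MIO-M1-CTG(0) values with Dox were uneven at 9.0, 9.05 and 10.88.

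Of 56 genes for proteoglycans, elastic fibres and matricellular proteins, 9 had a negative call and 2 a positive one. The proteoglycans ASPN (asporin, -2.54, SE 0.32) and OGN (osteoglycin, -2.32, SE 0.36) and the microfibril protein gene MFAP4 (-2.30, SE 0.29) were among the negative ones. ASPN had 6.99, 6.41 and 6.08 with Dox and 8.65, 8.75 and 8.78 without in MIO-M1-CTG(648) cells, whereas in MIO-M1-CTG(0) cells it stayed below 5 at 3.82, 4.37 and 4.12 with and 3.71, 3.97 and 3.71 without. MFAP4 was the opposite in level, with 5.41 to 6.08 and 7.37 to 7.72 in Dox-induced and non-induced cells of the MIO-M1-CTG(648) line and 12.86 to 13.26 and 12.33 to 12.65 in Dox-induced and non-induced cells of the MIO-M1-CTG(0) line. In ASPN and MFAP4 the fall with Dox in MIO-M1-CTG(648) cells was thus seen whichever line had the higher level. With ASPN below 5 in MIO-M1-CTG(0) cells, a fall there could have gone unseen.

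Of 41 collagen genes, 7 had a negative call and none a positive one (median difference -0.22). Besides COL14A1 and COL11A1, they included COL4A1, a basement membrane chain (-1.11, SE 0.26, adjusted p = 0.148), and COL12A1 (-1.26, SE 0.33, adjusted p = 0.215), which was called in the MIO-M1-CTG(0) line only. Among 25 genes for collagen processing only the lysyl oxidase LOXL3 was called (-1.91, SE 0.30), and 4 of the 25 had a difference above 0. Among 29 integrins and laminins 3 were called, all negative, ITGB4, the collagen receptor ITGA11 (-1.84, SE 0.33) and LAMA1. TGFB1, which induces many matrix genes, had a difference of -1.24 (SE 0.25, adjusted p = 0.0607), with 12.59, 12.32 and 12.30 in Dox-induced and 13.39, 13.09 and 13.27 in non-induced cells of the MIO-M1-CTG(648) line. Over 38 genes of the TGF-β and BMP pathways, 2 calls were positive, among them BAMBI, an inhibitory pseudoreceptor (1.47, adjusted p = 0.134), and 3 negative, TGFB1, TGFB3 and BMP6.

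The fibroblast and pericyte markers moved with these matrix genes in part. Of 15, 4 were called, all negative, PDGFRB (-1.40, adjusted p = 0.0348), ACTA2 (-1.06, 0.14), PDGFRA (-1.08, 0.183) and FAP (-1.0, 0.282), and the median of the list was -0.02. FAP lost its call in 9 of the 12 fits with 1 array left out. The log2 signals of the 15 were also summed. In the MIO-M1-CTG(648) line the sum lay between 115.55 and 119.0 with Dox and between 120.09 and 121.48 without, which did not overlap. In the MIO-M1-CTG(0) line it lay between 117.27 and 121.42 with Dox and between 119.58 and 120.21 without. The sum includes the 4 called genes, so its fall is no separate result and does not speak for the list as a whole. Of the pericyte markers on the list, RGS5 and KCNJ8 had means of 7.24 to 8.40 and 7.87 to 9.51 over the groups and differences of 0.09 and 0.13, neither called, while CSPG4, ABCC9, NOTCH3 and DES had means below 5 in all groups. ANPEP had a difference of 0.81 and was not called. In cultures, fewer cells of a kind and less RNA per cell cannot be told apart, and the part of these markers in the matrix result was not tested. Of 23 leukocyte and microglia markers none was called in the difference or in either line. Over all probe sets 1.63% were called in the difference. In the MIO-M1-CTG(648) and MIO-M1-CTG(0) lines 1.8% and 0.749% responded, so that a count of 0 is near the background. A mean of at least 5 in some group was reached by 10 of the 23. They included CD68 (11.19 to 11.61 over the groups), CSF1R, TYROBP and TMEM119, while PTPRC reached 5.50 and CD14, AIF1, ITGAM, CX3CR1 and P2RY12 stayed below 5.

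Negative calls were also found among genes of lipid synthesis. Of 19 genes of cholesterol synthesis and uptake, 4 had a negative call and 2 a difference above 0 (median -0.56, with median responses of -0.37 for MIO-M1-CTG(648) and 0.15 for MIO-M1-CTG(0) cells). INSIG1, the sterol sensor that retains SREBP in the endoplasmic reticulum, had 12.87, 12.79 and 12.84 in Dox-induced and 13.92, 13.93 and 13.66 in non-induced cells of the MIO-M1-CTG(648) line, and 13.28, 13.35 and 13.90 with Dox and 13.01, 13.05 and 12.90 without in MIO-M1-CTG(0) cells (-1.53, SE 0.27, adjusted p = 0.0316). The groups did not overlap in either line. The other 3 were DHCR7 (-1.06), HMGCS1 (-1.02) and LSS (-1.03), all enzymes of the pathway, with adjusted p between 0.183 and 0.233. Of 15 fatty acid synthesis genes 3 were called, all negative, the desaturases FADS2 (-1.43, SE 0.26, adjusted p = 0.039) and SCD (-1.67, SE 0.38, adjusted p = 0.139) and the transcription factor gene SREBF1 (-1.63, SE 0.39, adjusted p = 0.159).

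A response in the MIO-M1-CTG(0) line only was found for 77 probe sets, 33 positive and 44 negative, of which 5 had an adjusted p under 0.05. HAS2, a hyaluronan synthase, was low and level in MIO-M1-CTG(648) cells, at 5.97, 5.98 and 5.61 with Dox and 5.80, 5.89 and 5.82 without. The MIO-M1-CTG(0) cells had 7.68, 8.24 and 8.26 with Dox and 9.79, 9.22 and 9.66 without, which did not overlap. The difference was 1.51 (SE 0.30, adjusted p = 0.0607). The long non-coding RNA LINC01411 also fell in MIO-M1-CTG(0) cells only, with a difference of 1.5 (SE 0.28, adjusted p = 0.0393), as did NEFL, a neurofilament subunit (1.20, SE 0.29, adjusted p = 0.172).

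The negative ones rose in MIO-M1-CTG(0) cells. ACKR3, a decoy receptor for the chemokine CXCL12, had 11.10, 10.96 and 11.10 with Dox and 11.39, 11.79 and 11.89 without in MIO-M1-CTG(648) cells, and 8.88, 8.81 and 8.23 with and 7.34, 7.21 and 7.92 without in MIO-M1-CTG(0) cells (-1.79, SE 0.33, adjusted p = 0.0421). LAMA1, a laminin chain of basement membranes, had a response of -0.35 for MIO-M1-CTG(648) and 1.10 for MIO-M1-CTG(0) cells (-1.45, SE 0.28, adjusted p = 0.0477). MGP, an inhibitor of calcification, had -1.93 (SE 0.38, adjusted p = 0.0607) and the host transcript MIR181A1HG -1.60 (SE 0.32, adjusted p = 0.0574). In ACKR3, LAMA1 and MGP the non-induced cells of the MIO-M1-CTG(648) line already had the higher level by 4.20, 4.27 and 3.60. Of the 12 largest of this class by the naming rule, 5 were pseudogenes and 3 non-coding RNA genes, and OR7E18P, RPSAP37 and MIR620 had signals below 5 in most groups.

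**Figure D4:**
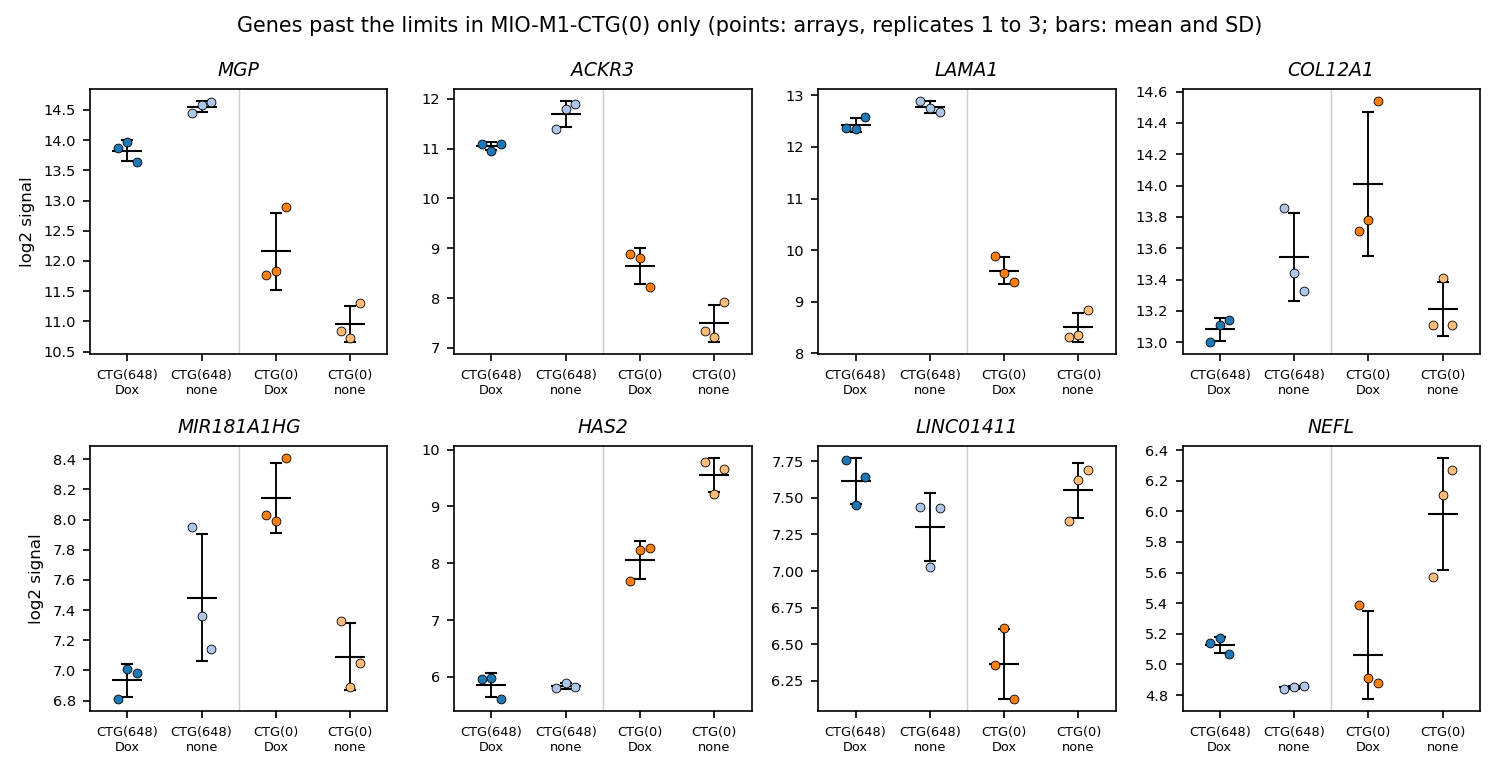
Log2 signal of 8 genes called in the MIO-M1-CTG(0) line only, in Dox-induced and non-induced cells of the MIO-M1-CTG(648) line, then Dox-induced and non-induced cells of the MIO-M1-CTG(0) line; points are the 3 arrays of a group and bars the mean and SD. The Dox-induced MIO-M1-CTG(0) arrays lie above the non-induced ones in the first 5 panels and below them in the last 3, as for HAS2 at 7.68 to 8.26 and 9.22 to 9.79.

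DMPK, the gene that supplied the minigene, belonged to the 168 called differences with no response past the limits in either line. Its signal was 9.78, 9.82 and 9.55 in Dox-induced and 10.32, 10.00 and 10.24 in non-induced cells of the MIO-M1-CTG(648) line, and 8.50, 8.63 and 8.49 with Dox and 7.90, 7.73 and 8.22 without in MIO-M1-CTG(0) cells. Its difference was -1.06 (SE 0.26, adjusted p = 0.166), made up of -0.47 and 0.59, and the groups did not overlap in either line. Whether the probe set detects the minigene's RNA beside that of the cell's own gene was not tested. Its signal is therefore not read as a measure of induction. Without Dox it was already 2.24 higher in the MIO-M1-CTG(648) than in the MIO-M1-CTG(0) line. Of the proteins that bind CUG repeats, MBNL1 had a difference of 0.25 (SE 0.21) and MBNL2 of 0.69 (SE 0.23, adjusted p = 0.414), and neither was called. The brighter probe sets of CELF1 and CELF2, splicing regulators of the CELF family, had 0.31 (SE 0.24) and 0.18 (SE 0.40) and were not called either. None of the 168 had an adjusted p under 0.05, while in 106 of them the groups were separate in both lines, in opposite directions, as in 1.54% of all probe sets. Since the 168 were chosen by the same difference, nothing is read from that count.

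In all, 14 microRNA genes were called among 1506 probe sets for such genes (0.93%), 3 with a positive and 11 with a negative difference. The probe sets are named for the gene and not for a mature arm. Mature sequences from RefSeq (GRCh38.p14) are shown for those called in 1 line other than MIR4288, with the seed (bases 2 to 8) in capitals.
miR-298: aGCAGAAGcagggagguucuccca
miR-4275: cCAAUUACcacuucuuu
miR-448: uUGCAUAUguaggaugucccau
miR-548g-3p: aAAACUGUaauuacuuuuguac
miR-548g-5p: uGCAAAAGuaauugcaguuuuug
miR-548x-3p: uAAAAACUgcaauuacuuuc
miR-548x-5p: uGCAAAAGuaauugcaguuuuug
miR-635: aCUUGGGCacugaaacaaugucc
miR-3119: uGGCUUUUaacuuugauggc
miR-620: aUGGAGAUagauauagaaau
miR-7852-3p: uAUGUAGUagucaaaggcauuu
MIR448 (X chromosome) was the only one with an adjusted p under 0.05 (0.0319). It had 2.97, 2.99 and 2.89 in Dox-induced and 3.57, 3.64 and 3.91 in non-induced cells of the MIO-M1-CTG(648) line, and 3.83, 3.91 and 3.98 with Dox and 3.34, 3.45 and 3.33 without in MIO-M1-CTG(0) cells, all of them dim. MIR298 rose in MIO-M1-CTG(648) cells, with 5.55, 5.69 and 5.78 with Dox and 4.14, 4.76 and 3.89 without, against 4.52, 4.48 and 4.11 with and 4.53, 4.49 and 4.08 without in MIO-M1-CTG(0) cells (difference 1.41, SE 0.33). MIR4288 (2.24, SE 0.45) and MIR4275 (1.76, SE 0.44) were the other positive ones. MIR548G and MIR548X, of a repeat-derived family, lie on chromosomes 4 and 21 and share the same mature 5p sequence with the seed GCAAAAG, and both were negative (-1.64, SE 0.37, and -1.47, SE 0.36). The other seeds were all different.

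The highest difference of all, 5.95 (SE 0.50, adjusted p = 0.000528), belonged to a probe set with the symbol U6, the spliceosomal small nuclear RNA, which was not matched to a RefSeq gene. It was the only one called of 19 probe sets with that symbol, of which 10 had a difference below 0, down to -0.83. The called one had 10.86, 10.45 and 10.80 in Dox-induced and 6.28, 5.30 and 4.62 in non-induced cells of the MIO-M1-CTG(648) line, against 4.91, 5.26 and 5.14 with and 6.19, 5.84 and 5.21 without Dox in MIO-M1-CTG(0) cells. RN7SL241P, a pseudogene of the signal recognition particle RNA, followed the same pattern (2.93, SE 0.55). Both belong to families with many near-identical copies, so the locus that gave the signal is uncertain. HTR7P1 (2.65, SE 0.44), a pseudogene of a serotonin receptor gene, and the long non-coding RNA UCA1 (2.71, SE 0.52, adjusted p = 0.0519) were also among the 10 highest.

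Protein-coding genes were called more often than others, 435 of 19341 (2.25%), against 95 of 10561 pseudogene probe sets (0.9%), 25 of 3160 for long non-coding RNAs (0.791%) and 6 of 482 for small nucleolar RNAs (1.24%). The share called also went with the level, from 0.493% of probe sets with a mean under 4 to 3.95% of those between 9 and 11. No test was run on these shares. Of 59 called genes with several probe sets, 3 had more than 1 called and none had calls in both directions. Probe sets of 1 gene could still differ, as in SORBS2 (-1.67 to 0.03) and ACSS3 (-1.24 and -0.02).

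Proliferation genes had small differences that lay mostly above 0. Of 57 DNA replication and E2F target genes 52 had a difference above 0, with a median of 0.31, and of 51 mitosis genes 48 had, with a median of 0.26, against 51.9% above 0 over all probe sets. Of both lists, only POLE2, a subunit of DNA polymerase ε, was called (1.26, SE 0.36, adjusted p = 0.282). It had 7.20, 6.70 and 7.27 in Dox-induced and 6.13, 6.60 and 6.55 in non-induced cells of the MIO-M1-CTG(648) line. The median responses of the replication list were 0.25 for MIO-M1-CTG(648) and -0.05 for MIO-M1-CTG(0) cells. Lists with no call in the difference included those for glycolysis and hypoxia, mitochondrial ribosomal proteins, respiratory chain subunits, replication-dependent histones, SR proteins and hnRNPs, and metallothioneins. Over all probe sets 1.63% were called, so that a count of 0 in lists of this size is near the background. Of 74 mitochondrial ribosomal protein genes 57 had a difference above 0, and of 9 metallothioneins 1 had.

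**Figure D5:**
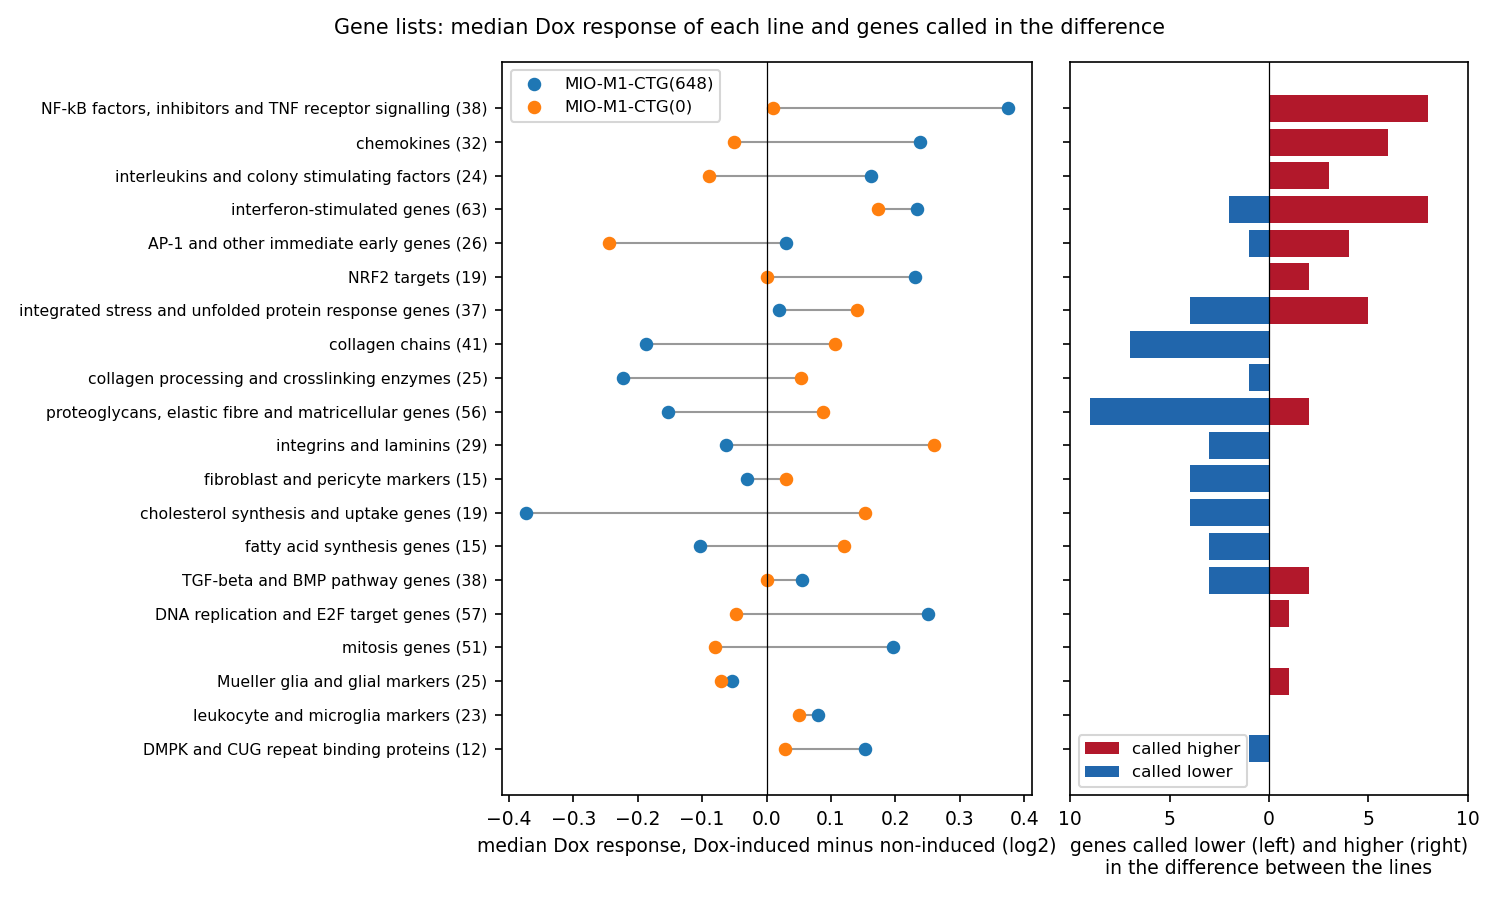
Median Dox response of 20 gene lists in MIO-M1-CTG(648) and MIO-M1-CTG(0) cells (left, log2, number of measured genes in parentheses) and the number of their genes called lower or higher in the difference between the lines (right). The NF-κB list has 8 genes called higher and medians of 0.38 for MIO-M1-CTG(648) and 0.01 for MIO-M1-CTG(0) cells, and the cholesterol list 4 genes called lower and medians of -0.37 and 0.15.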

How the data were processed

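Total RNA of 12 cultures, 3 in each of 4 groups, was hybridised to Clariom D Human arrays. The deposited values were log2 signals per probe set, made by the authors with RMA background correction and quantile normalization. RMA and hg38 stand in the submitters' processing notes, and tool versions were not given in the sources used here. The authors tested their contrasts with limma and a false discovery rate. Columns of other samples in the table numbered 0.

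Limma 3.58.1 in R 4.3.3 was fitted with 1 mean per group on all 135750 probe sets, and the p-values of the 36176 with 1 gene symbol were adjusted by the Benjamini-Hochberg method. Probe sets with several symbols (1119) or none (98455) were left out of the classes. The limits, a log2 difference of 0.5 and a p of 0.005, are those of the study. Symbols were matched to RefSeq by Entrez number (25516) or symbol (9899), and 761 stayed unmatched. For lists, the brightest probe set stood for a gene. No symbol on the list of mitochondrially encoded genes was found among the probe sets, although 8 probe sets placed on the mitochondrial chromosome were tested, of which 0 were called.

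The naming rule covers DMPK, MBNL1, MBNL2, CELF1 and CELF2, the 10 highest and 10 lowest called differences, the 6 largest in each direction of the opposite class and of each 1-line class, up to 4 called members of each list described by p, and the called microRNA genes. Not every gene under this rule is named in the text. Others are named to complete a class or mark a limit, and promoters were chosen after their values were seen. The members and lists were chosen with earlier results of these data known. P-values rest on the spread between biological replicates within the 4 groups, pooled over both lines and moderated over all probe sets. They do not measure a spread between lines of the same repeat length, since each length had 1 line. The number of arrays limits the precision. Alternatives were another threshold, variance model, normalization, filter or replicate block, and each array left out. The fit was tested on simulated data.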

Additional observations from a re-analysis of the deposited data

Results flagged for a closer look

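The test of the difference between the lines itself was passed by 113 probe sets at an adjusted p under 0.05 (limma, over 36176), out of 588 called at the unadjusted limit.

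For 20 of these the Dox responses of the 2 lines passed the unadjusted limits in opposite directions. Lower in Dox-induced MIO-M1-CTG(648) and higher in Dox-induced MIO-M1-CTG(0) cells than in their non-induced counterparts were PI15 (difference -4.42), SELENOP (-3.76), SEMA3E (-2.75), PDE5A (-2.42), CHI3L1 (-2.26), COL14A1 (-2.14), COL11A1 (-1.87), CST7 (-1.82), SORBS2 (-1.67), CHRNE (-1.66), PROS1 (-1.66) and TNS2 (-1.56). The reverse held for RPEP5 (1.49), YWHAEP4 (1.57), LYPD6 (1.62), HRAT17 (2.03), ADAMTS1 (2.06), LINC00707 (2.38), PGF (2.84) and DIRAS3 (2.89).

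Among the 99574 probe sets with several symbols or none, which the comparisons do not use, 793 (0.796%) passed the same limits for the difference, 305 positive and 488 negative.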

How the results depend on the processing

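At an adjusted p under 0.05, 113 of the 588 called differences passed, 58 positive and 55 negative, and of the classes 88 in the MIO-M1-CTG(648) line only, 5 in the MIO-M1-CTG(0) line only, 20 opposite and 0 with neither line past its limits. A variance trend with intensity gave 909 calls (509 negative), 43 opposite, 1 in the same direction and 335 with neither. Without variance moderation 285 had neither, and with a log2 limit of 1, 106 did. Taking all probe sets, with or without a symbol, gave 1381 calls (576 positive, 805 negative), 1 in the same direction, 610 in the MIO-M1-CTG(648) line only, 272 in the MIO-M1-CTG(0) line only and 465 with neither. A variance prior from the probe sets with 1 symbol, chosen after seeing the data, gave 34 opposite and 144 in the MIO-M1-CTG(0) line only. With a p under 0.05 for each line's response, 124 were opposite and 23 had neither. The methods' t-test, which the study names for comparing 2 groups in general and not for the arrays (analysed with limma), at the limits used here called 409 Dox responses of the MIO-M1-CTG(648) and 127 of the MIO-M1-CTG(0) line (1435 and 894 at a p under 0.05, 5 and 0 after Benjamini-Hochberg adjustment), of which 298 and 62 were shared with limma.

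With 1 array left out, the calls ranged from 429 to 548 (197 to 273 positive, 218 to 302 negative), the opposite class from 11 to 25, the same direction from 0 to 0, the MIO-M1-CTG(648) line only from 241 to 289, the MIO-M1-CTG(0) line only from 49 to 79 and neither from 98 to 158. The Dox responses ranged from 458 to 665 for the MIO-M1-CTG(648) and from 169 to 273 for the MIO-M1-CTG(0) line. The opposite class held 11 without Dox-induced MIO-M1-CTG(0) replicate 3, 12 without Dox-induced MIO-M1-CTG(648) replicate 1 and 12 without non-induced MIO-M1-CTG(0) replicate 1. The lowest counts of 49, 98 and 169 came without Dox-induced MIO-M1-CTG(648) replicate 3, Dox-induced MIO-M1-CTG(0) replicate 3 and non-induced MIO-M1-CTG(0) replicate 1. Of 112 named called probe sets, 23 lost their call in at least 1 of these fits and none changed sign.

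Samples with the same replicate number did not deviate together (correlations of -0.143 to 0.122 over 18 pairs, 1 above 0.1), and 2 of 12 arrays correlated best with their own number, so the numbers do not pair the samples. A replicate block gave 505 calls, of which 17 were opposite, and 5 of the named called probe sets lost their call. Centring each array on its median gave 308 positive and 265 negative calls, against 271 and 317 without it. The causes of these changes were not tested. Of probe sets with a mean under 4, 0.493% were called, and whether a low signal hid differences there was not tested.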
